A study of Mus musculus with 24 samples.

Results

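The genes described here are 10 members of the BCL2 protein family, taken by symbol from a table of 55487 mouse genes: Bcl2, Bcl2l1, Mcl1, Bcl2a1b, Bax, Bak1, Bcl2l11, Bbc3, Pmaip1 and Bid. All 10 were found and all 10 passed the filter on low counts. Their RNA was followed in LSK cells of the mouse, sequenced in bulk as 24 libraries that form 6 groups with 4 each. LSK cells are the lineage-negative, Sca-1-positive, KIT-positive fraction of blood-forming tissue, which holds stem cells and early progenitors; the design text names the sorted cells only as lineage-negative and KIT-positive. From newborn mice (postnatal day 0, P0) there was liver of wild type (P0 WT) and liver of a Tet-off model that expresses human MLL::ENL (ME), where expression was switched on at E10.5, before birth (P0 ME). From mice at postnatal day 28 (P28) there was bone marrow from wild-type mice (P28 WT), from mice with ME induced at E10.5 (P28 ME E10.5), from mice with ME induced at P0 (P28 ME P0), and from a last group, again induced at E10.5, whose label adds RLT Vav Txp, a name that is not expanded. MLL::ENL is a leukaemia fusion of a histone methyltransferase with a transcription elongation factor. The promoter that drives the transgene is not given in the sources used here, and the human transgene itself was not analysed here. Since all liver came from P0 and all marrow from P28, age and tissue cannot be told apart.

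BCL2 family proteins decide at the mitochondrial outer membrane whether a cell starts the intrinsic pathway of apoptosis. BCL2, BCL-XL (the product of Bcl2l1), MCL1 and A1 (the product of the Bcl2a1 genes) bind and hold back their pro-apoptotic relatives, BAX and BAK are the effectors that open the membrane, and the BH3-only proteins BIM (Bcl2l11), PUMA (Bbc3), NOXA (Pmaip1) and BID start or speed that step. Blood stem cells are known to need Mcl1, red cell precursors to need Bcl2l1, and BCL2 is a known target gene of MLL fusions.

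The RNA of 3 survival genes differed between liver and marrow, and 1 start of each is shown because the windows before them differ in CpG content. For Bcl2l1 it is the most upstream of several annotated starts. Each line gives the 250 bases before a start annotated in RefSeq (GRCm38.p6), read on the gene's own strand, with CG pairs in capitals.
Bcl2, chr1:106714291-106714540, minus strand: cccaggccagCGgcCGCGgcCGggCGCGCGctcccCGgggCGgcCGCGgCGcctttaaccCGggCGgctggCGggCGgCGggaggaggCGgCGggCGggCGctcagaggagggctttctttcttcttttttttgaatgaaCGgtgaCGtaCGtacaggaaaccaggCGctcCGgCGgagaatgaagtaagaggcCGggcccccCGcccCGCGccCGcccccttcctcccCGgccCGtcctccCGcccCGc
Bcl2l1, chr2:152831729-152831978, minus strand: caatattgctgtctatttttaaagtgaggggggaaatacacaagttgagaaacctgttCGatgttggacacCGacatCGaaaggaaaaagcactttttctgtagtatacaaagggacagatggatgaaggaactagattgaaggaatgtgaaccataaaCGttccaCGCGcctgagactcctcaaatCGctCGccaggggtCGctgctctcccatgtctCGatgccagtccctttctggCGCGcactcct
Mcl1, chr3:95658471-95658720, plus strand: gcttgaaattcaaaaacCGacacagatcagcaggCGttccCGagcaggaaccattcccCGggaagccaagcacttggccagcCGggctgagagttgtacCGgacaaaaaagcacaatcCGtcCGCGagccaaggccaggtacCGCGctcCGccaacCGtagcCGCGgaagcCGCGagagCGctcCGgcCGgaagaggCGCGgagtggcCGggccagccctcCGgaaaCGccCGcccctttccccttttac
The Bcl2 window held 36 CG pairs, a number reached by 2.58% of 32851 RefSeq windows of the same length, whose median was 6. The Mcl1 window held 26, reached by 9.59%, and the Bcl2l1 window held 12, reached by 33.5%. Both strands were also searched for 5 motifs: STAT as TTCNNNGAA (in 7.02% of all windows), GATA factors as GATAA (22.6%), the E-box as CACGTG (6.02%), CRE as TGACGTCA (1.55%) and ETS as CCGGAAG (6.91%). The printed Bcl2 and Bcl2l1 windows held none of these 5, and the Mcl1 window held 1 ETS match. Other annotated Bcl2l1 starts, not printed, had windows with 11 and 0 CG pairs. The window with 0 CG pairs held 1 GATA match, and the window with 11 held none of the 5 motifs. RefSeq windows were found for 9 of the 10 genes.

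Library totals ran from 31233688 to 89774511 counts, so that a level of 1 CPM (reads of a gene scaled to a fixed library size, TMM-normalised throughout) stood for at least 32.5 reads. Levels of different genes can be set side by side only per length of exon. On that scale, as means over the 24 libraries, Mcl1 stood at 103.5 CPM per kb, Bid at 33.8, Bax at 33.3, Bcl2l1 at 12.9, Bbc3 at 9.06, Bcl2 at 5.27, Bcl2l11 at 2.89, Pmaip1 at 2.28, Bcl2a1b at 1.29 and Bak1 at 0.684. Mcl1 made up 76.1% to 88.9% of the summed per-kb level of Bcl2, Bcl2l1 and Mcl1 in every library. On GRCm38, Bcl2 spans chr1:106538178-106714274, Bcl2l1 chr2:152780668-152831728, Mcl1 chr3:95658788-95663176, Bcl2a1b chr9:89199209-89207827 and Pmaip1 chr18:66458533-66465565, and the values are summed over their exons. Not all reads could be assigned cleanly. Bcl2a1b shares 57.6% of its 50-base stretches with the other Bcl2a1 copies and 49.1% of its exon bases with the overlapping gene model Gm29094. Exon bases are also shared with genes on the other strand for Bak1 (25.5%, with Ggnbp1), Bid (17.7%, with Bcl2l13) and Bcl2 (6.09%, with D630008O14Rik), and the strand setting of the counting is not given in the sources used here. Bax shares 12.2% of its exon bases with the gene model Gm45808 on its own strand.

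Markers of mature blood cells differed between libraries and are given before the results. In P0 libraries 2 to 4 of both genotypes, the summed level of 10 macrophage markers was 1080 to 1599 CPM, that of 8 neutrophil markers 10610 to 36530 CPM and that of 9 erythroid markers 5362 to 17850 CPM. Library 1 of each P0 group stood apart, with 127 (WT) and 119 (ME) CPM of macrophage markers and 662 (WT) and 274 (ME) CPM of erythroid markers. Library 1 of P0 WT had, however, the highest sum of the 8 mast cell and basophil markers among all 24 libraries, 8751 CPM, beside 795.5 to 1762 CPM in the other P0 WT libraries and 43.8 CPM in library 1 of P0 ME. The P28 WT and both P28 ME groups had 49.5 to 104.8 CPM of macrophage markers, with Vsig4 at 0 counts in all 3 groups and Marco at 0 in P28 ME P0. The RLT Vav Txp libraries had 624 to 2704 CPM of them. The 8 LSK markers summed to 4257 to 5285 CPM in P28 WT and both P28 ME groups, to 2003 to 3005 CPM in RLT Vav Txp and to 2186 to 4967 CPM at P0, with none at 0 in any group. In bulk samples such as these, fewer cells of a type and less RNA per cell cannot be told apart.

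**Figure D1:**
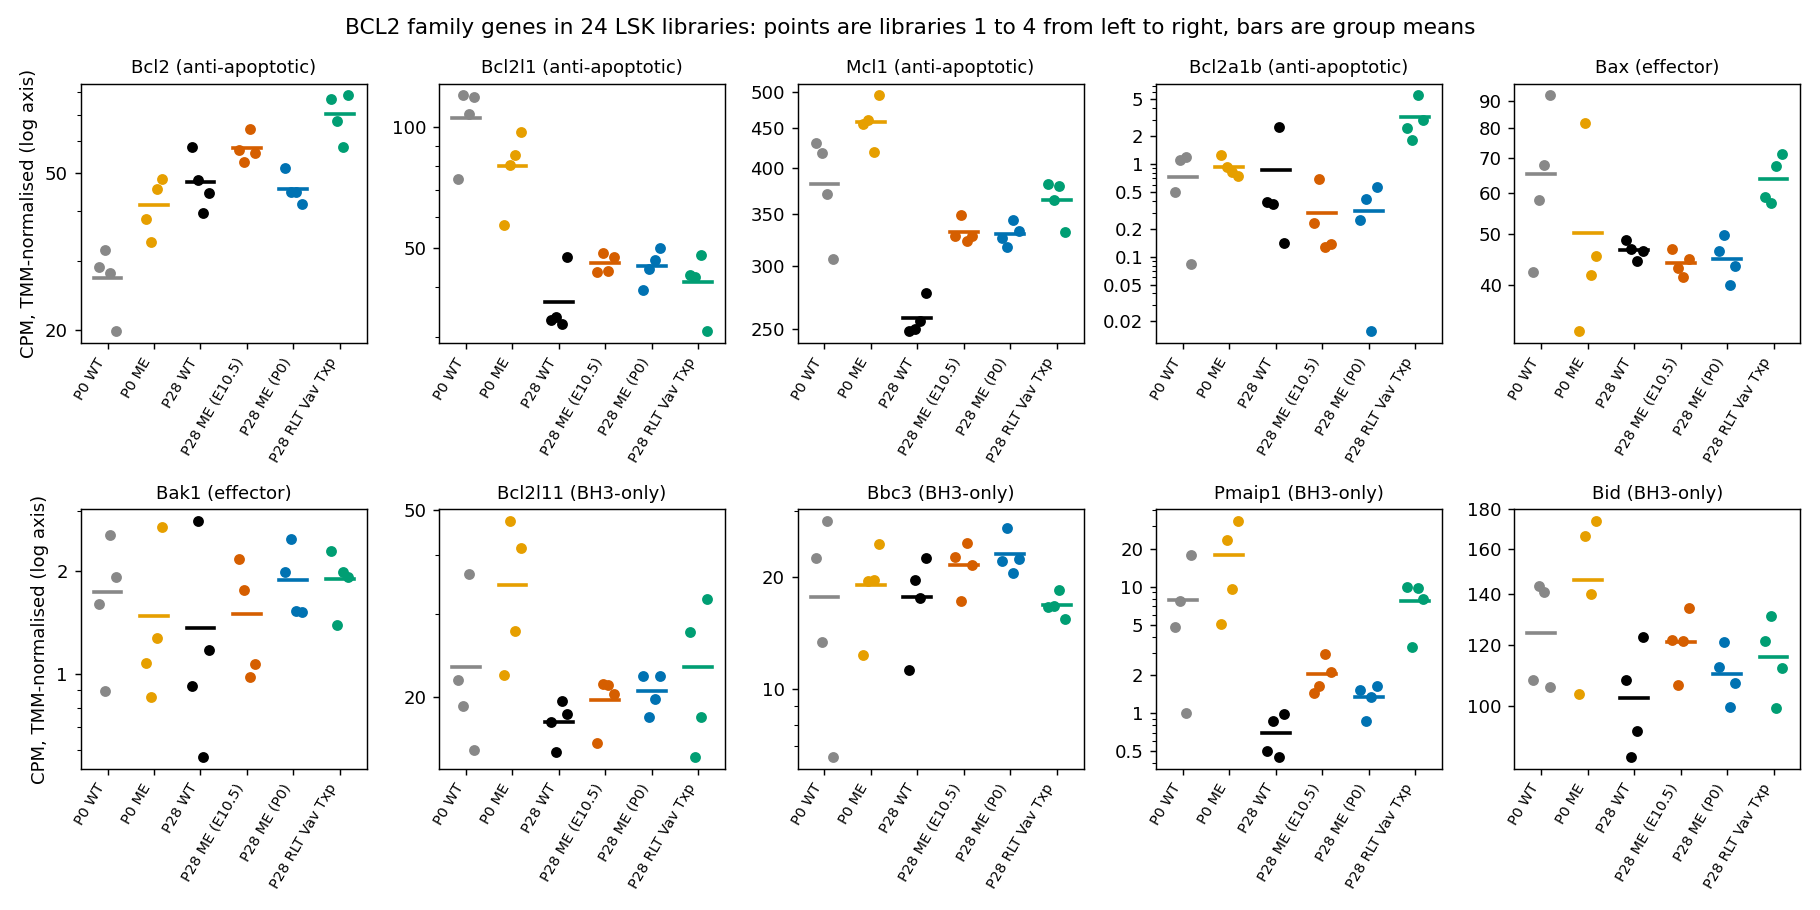
Level of each gene in each of the 24 libraries (vertical axes, TMM-normalised CPM on log scales that differ between panels) by group, with points for libraries 1 to 4 from left to right and bars for group means. Bcl2l1 is highest in the P0 groups, Pmaip1 is lowest in P28 WT, and Bcl2a1b is highest in RLT Vav Txp.

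Bcl2, Bcl2l1 and Mcl1 differed between P0 liver and P28 marrow, and they did not move together. In wild-type cells Bcl2 was higher in P28 marrow than in P0 liver, whereas Bcl2l1 and Mcl1 were lower. A gene was called where the edgeR quasi-likelihood test gave a Benjamini-Hochberg adjusted p under 0.05 over the 23059 genes tested. By that rule 4 of the 10 genes were called in wild type, 1 higher and 3 lower, beside 7.68% of all genes tested. In ME cells induced at E10.5, 5 of 10 were called between P28 marrow and P0 liver, 1 higher and 4 lower, beside 18.2% of all genes.

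For Bcl2, the 4 P0 WT libraries had 28.9, 31.9, 27.9 and 19.9 CPM and the P28 WT libraries 58.1, 47.8, 39.6 and 44.4 CPM. Every marrow library was above every liver library. The log2 fold change was 0.81 ± 0.17 (SE; edgeR, adjusted p = 0.00338). With only the groups compared it was no longer called (0.82, adjusted p = 0.0966). With ME, the P0 libraries had 38.2, 33.4, 45.4 and 48.4 CPM and the P28 ME E10.5 libraries 57.2, 53.3, 64.4 and 56.2 CPM. These groups did not overlap either, and the log2 fold change was 0.48 ± 0.17 (edgeR, adjusted p = 0.0445). That second call was lost with RLE factors, plain library totals, DESeq2, no filter and a stricter filter. It was also lost when the RLT Vav Txp libraries were left out, with or without a block for replicate number. Adjusted p in those fits went up to 0.123. Leaving out each library in turn, Bcl2 stayed called in 3 of 8 fits, at 0.40 to 0.58 and adjusted p up to 0.154 (edgeR).

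Bcl2l1, whose product BCL-XL protects maturing red cells, moved the other way. It stood at 74.4, 120.2, 107.9 and 118.9 CPM in P0 WT and at 33.1, 33.7, 32.3 and 47.6 CPM in P28 WT. The lowest liver library, library 1, was still above the highest marrow library. Bcl2l1 fell by 1.52 ± 0.19 on the log2 scale (edgeR, adjusted p = 1.14e-05), a 2.87-fold difference. With ME it stood at 57.3, 80.8, 85.4 and 97.4 CPM at P0 and at 43.8, 48.7, 43.8 and 47.7 CPM at P28, again without overlap. The log2 fold change was -0.80 ± 0.18 (edgeR, adjusted p = 0.00341). Erythroid markers were also lower at P28, 8 of 9 in wild type and 7 of 9 in ME. The levels did not run in parallel in every library. The P0 libraries numbered 1 had 662 (WT) and 274 (ME) CPM of these markers, yet Bcl2l1 was above every marrow library. RLT Vav Txp had 1148 to 2425 CPM of them with a Bcl2l1 mean of 41.15 CPM. P28 ME P0 had 183 to 226 CPM with a mean of 45.14 CPM. The part of erythroid cells in the result was not tested.

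Mcl1, whose short-lived product is needed by blood stem cells, had 431, 418, 371 and 307 CPM in P0 WT and 248, 250, 256 and 278 CPM in P28 WT. It fell by 0.57 ± 0.12 on the log2 scale (edgeR, adjusted p = 0.00313), with no overlap between the groups. This call was lost with only the groups compared (-0.55, adjusted p = 0.152). With ME it had 455, 460, 420 and 495 CPM at P0 and 328, 349, 323 and 328 CPM at P28. All P28 libraries were below all P0 libraries here too, and Mcl1 fell by 0.46 ± 0.12 (edgeR, adjusted p = 0.00686). That call was lost without P28 ME E10.5 replicate 1, at -0.38 and an adjusted p of 0.0659.

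**Figure D2:**
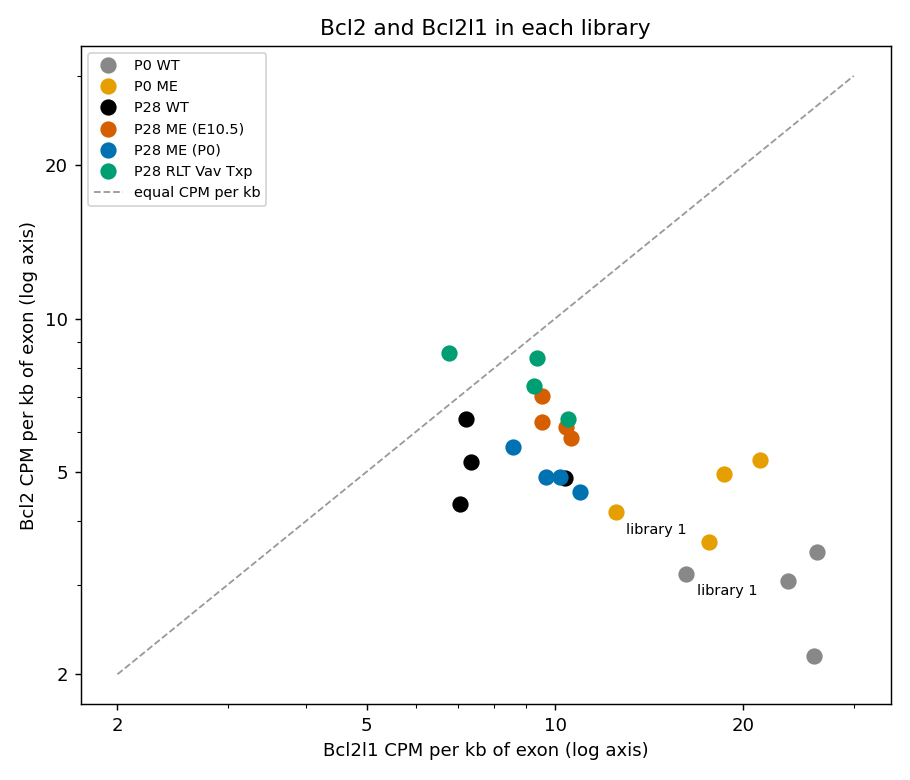
Level of Bcl2 (vertical axis) against Bcl2l1 (horizontal axis), both in CPM per kb of exon on log axes, 1 point per library, with a dashed line where both are equal. The P0 libraries lie to the right with little Bcl2 per Bcl2l1, and 1 RLT Vav Txp library lies above the line.

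Set against each other per kb of exon, Bcl2 was 0.0838 to 0.195 of the Bcl2l1 level in P0 WT and 0.207 to 0.334 of it in P0 ME. In the 16 marrow libraries the same ratio was between 0.417, in a P28 ME P0 library, and 1.26, in an RLT Vav Txp library. No liver library reached the lowest marrow library. The ratio is built from genes already compared above and is given as a description.

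Among the death genes, Pmaip1 had the largest fold between liver and marrow. Pmaip1 encodes NOXA, which mainly neutralises MCL1. P0 WT libraries had 4.77, 7.72, 0.999 and 17.8 CPM, and P28 WT libraries had 0.503, 0.863, 0.449 and 0.990 CPM, which rested on 18 to 64 reads per library. The liver libraries spread widely, and the lowest of them, library 3, was only just above the highest marrow library. Pmaip1 fell by 3.47 ± 0.65 on the log2 scale (edgeR, adjusted p = 0.00139), and limma voom with quality weights gave -2.90 with an adjusted p of 0.0548. With ME it went from 5.03, 23.5, 9.63 and 32.9 CPM at P0 to 1.43, 1.64, 2.91 and 2.11 CPM at P28, without overlap, and fell by 3.13 ± 0.63 (edgeR, adjusted p = 0.00134).

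Bcl2l11, which encodes the BH3-only protein BIM, was called in ME and not in wild type. Its ME libraries had 22.2, 47.2, 27.6 and 41.5 CPM at P0 and 16.0, 21.3, 21.2 and 20.3 CPM at P28. The groups did not overlap and the log2 fold change was -0.81 ± 0.27 (edgeR, adjusted p = 0.0362). In wild type the value was -0.39 (edgeR, adjusted p = 0.435), and the difference between those values, -0.43, was not called when tested as an interaction (edgeR, adjusted p = 0.615). The ME call was lost without any 1 of 6 of the 8 libraries (P0 ME replicates 2 and 4 and all 4 P28 ME E10.5 replicates), with values of -0.85 to -0.62 and adjusted p of 0.0685 to 0.164.

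The sizes of these liver to marrow differences were recomputed with each P0 group represented by its library 1 alone. A group of 1 library shows no spread of its own, so no calls are given for this fit. That library was the lowest of its group in macrophage, neutrophil and erythroid markers, but in wild type it was the highest in mast cell and basophil markers, so the wild-type values do not rest on a library low in all mature-cell markers. In wild type, the log2 fold change was then -0.96 for Bcl2l1, -0.68 for Mcl1, -2.70 for Pmaip1 and 0.77 for Bcl2. In ME it was 0.66 for Bcl2, -0.25 for Bcl2l1, -0.39 for Mcl1, -0.11 for Bcl2l11 and -1.25 for Pmaip1. Each of these values kept its sign. In wild type the size was smaller than with all libraries for Bcl2l1, Pmaip1 and Bcl2 and larger for Mcl1. In ME it was smaller for Bcl2l1, Mcl1, Bcl2l11 and Pmaip1 and larger for Bcl2. With 1 library in each P0 group, these changes in size cannot be set against a spread. Macrophage markers were lower at P28 in 8 of 10 cases in wild type and 9 of 10 in ME, and neutrophil markers in 6 and 7 of 8. The part of mature cells in these differences was not tested.

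In newborn liver, ME and wild type were compared directly, and 0 of the 10 genes were called by edgeR, beside 0.642% of all genes. At an unadjusted p under 0.05 there were 4, DESeq2 called 1 and limma called 0. The share of all genes at that unadjusted threshold was not computed, here or in the comparisons below. The 4 are therefore not read as a result about these genes. Counts by DESeq2 and limma, here and below, stand without the share of all genes that each tool called. They are not read as such a result either. The gene that DESeq2 called was Bcl2, a fusion target. Its P0 ME libraries, at 33.4 to 48.4 CPM, were all above its P0 WT libraries, at 19.9 to 31.9 CPM. The log2 fold change was 0.61 with a 95% interval of 0.26 to 0.95 (edgeR, adjusted p = 0.0921), and DESeq2 gave an adjusted p of 0.0154. By the libraries numbered 1 alone, at 28.9 CPM in WT and 38.2 CPM in ME, the log2 fold change was 0.40, given without a test. Bcl2l1 had a log2 value of -0.39 (0.325), Mcl1 0.26 (0.298), Bcl2l11 0.58 (0.325) and Pmaip1 1.19 (0.370), with overlapping groups for Bcl2l1, Mcl1, Bcl2l11 and Pmaip1.

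In P28 marrow, Mcl1 was modestly higher with ME induced at E10.5 than in wild type. The Mcl1 libraries of P28 ME E10.5, at 323 to 349 CPM, were all above those of P28 WT, at 248 to 278 CPM. The log2 fold change was 0.37 ± 0.12 (edgeR, adjusted p = 0.0395). Mcl1 was the only one of the 10 genes called, a share below the 12.3% of all genes called in this comparison. The call was lost with RLE factors, plain library totals, no filter and a stricter filter, at 0.24 to 0.33, with an adjusted p as high as 0.245. Single libraries mattered as well, since the call was lost without any 1 of 7 of the 8 libraries (all but P28 WT replicate 4), at 0.30 to 0.40 and adjusted p of 0.0677 to 0.186. Bcl2 was 47.5 ± 7.85 CPM in P28 WT and 57.8 ± 4.70 CPM in P28 ME E10.5 (SD, n = 4), with overlapping groups and a 95% interval of the log2 difference of -0.06 to 0.63 (edgeR, adjusted p = 0.287). Pmaip1, at 0.449 to 0.990 CPM in P28 WT, was at 1.43 to 2.91 CPM in P28 ME E10.5 without overlap, but its log2 value of 1.53 missed the threshold (edgeR, adjusted p = 0.103). Bcl2l1 had a value of 0.33 (edgeR, adjusted p = 0.258).

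With induction at birth, Mcl1 in P28 ME P0 was 326, 317, 344 and 332 CPM, again above every P28 WT library. Its log2 fold change of 0.36 missed the threshold (edgeR, adjusted p = 0.0899), while DESeq2 and limma voom called it, at adjusted p of 0.0375 and 0.000859. No other member was called by either tool: edgeR called 0 of 10 genes, beside 1.57% of all genes, and 1 had an unadjusted p under 0.05. Bcl2 in P28 ME P0 was 51.3, 44.6, 44.7 and 41.8 CPM, within the range of P28 WT, with a log2 difference of -0.06 (edgeR, adjusted p = 0.890). Both ME groups are compared here with the same 4 wild-type libraries.

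Compared directly, induction at P0 and at E10.5 gave 0 of 10 genes called by edgeR, beside 0.0477% of all genes by the same test. At an unadjusted p under 0.05 there were 0. DESeq2 called 0 of the 10 and limma voom called 1, Bcl2, with no share of all genes given for either tool. The Bcl2 libraries of P28 ME P0, at 41.8 to 51.3 CPM, were all below those of P28 ME E10.5, at 53.3 to 64.4 CPM. The log2 difference was -0.34 with a 95% interval of -0.68 to 0.00 (edgeR, adjusted p = 1; limma, adjusted p = 0.0206). For Mcl1 the difference was -0.01, with a 95% interval of -0.25 to 0.23 and a sign that depends on the scaling.

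**Figure D3:**
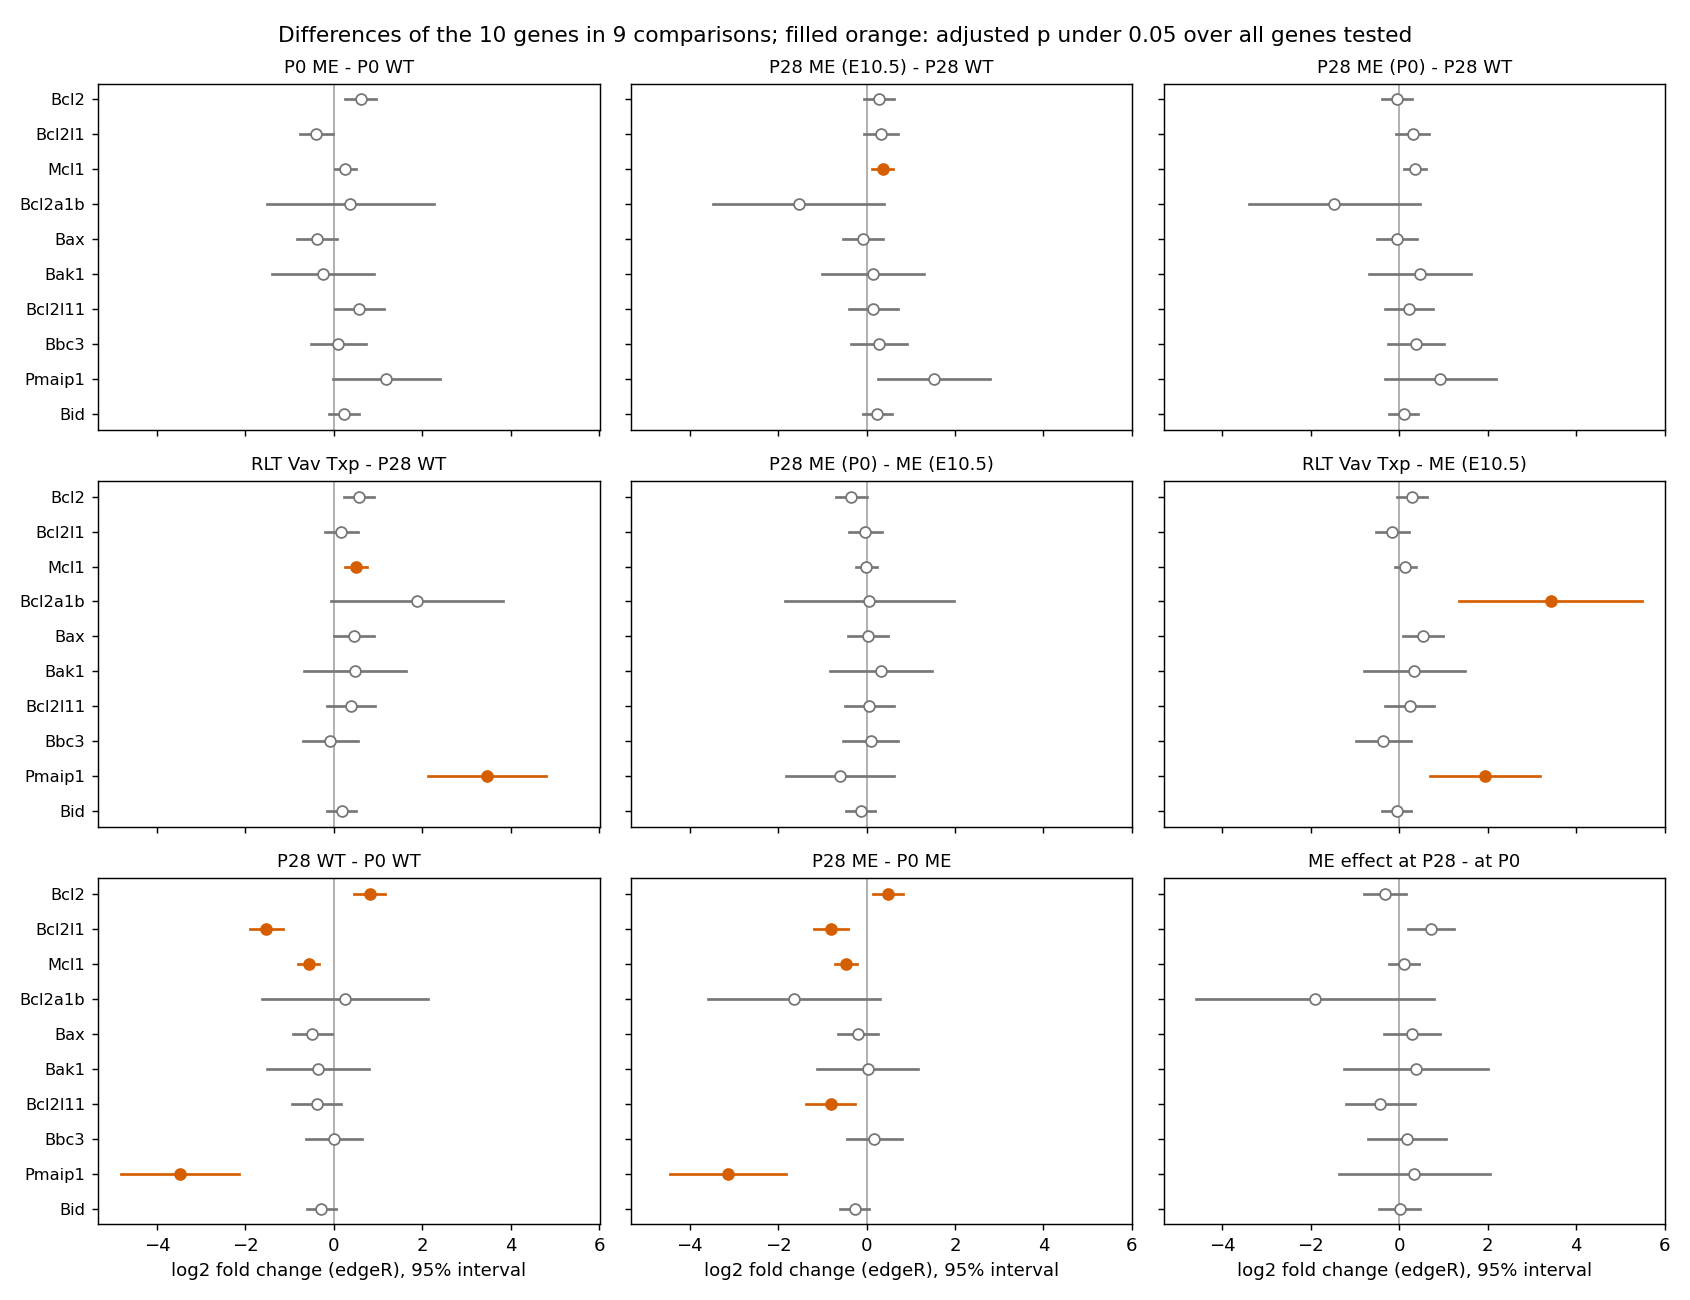
Log2 fold change with its 95% interval (horizontal axes) for the 10 genes (vertical axes) in the 9 comparisons, from the edgeR fit of all 24 libraries, with filled orange points where the adjusted p was under 0.05. Called genes are seen mainly in the 2 panels that set P28 against P0, and Bcl2a1b, Bak1 and Pmaip1 have the widest intervals.

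The RLT Vav Txp group, which also carries ME induced at E10.5, differed from P28 WT in 2 of 10 genes, both higher, beside 4.12% of all genes. Pmaip1 was the larger, at 9.99, 3.33, 9.66 and 7.96 CPM against 0.449 to 0.990 CPM in P28 WT, with no overlap. Its log2 fold change was 3.46 ± 0.65 (edgeR, adjusted p = 0.00163), an 11.0-fold difference. Mcl1 was 382, 365, 380 and 332 CPM, above all P28 WT libraries, with a log2 fold change of 0.50 ± 0.12 (edgeR, adjusted p = 0.0107). That call was lost with plain library totals (0.40, adjusted p = 0.0861) and with no filter (0.50, 0.0776). Bcl2 was 76.6, 67.5, 58.2 and 78.4 CPM, just above the highest P28 WT library of 58.1 CPM. Its value of 0.56 missed the threshold (edgeR, adjusted p = 0.0553), while DESeq2 called it, at an adjusted p of 0.0262. It was called without P28 WT replicate 1, at 0.68 (edgeR, adjusted p = 0.0417), or without RLT Vav Txp replicate 3, at 0.65 (0.0458).

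Against P28 ME E10.5, which shares its time of induction, the RLT Vav Txp group again had 2 of 10 genes called, both higher, a share close to the 17.9% of all genes called. These were Bcl2a1b and Pmaip1. Bcl2a1b, which encodes a copy of the NF-kappaB-induced survival protein A1, had 2.44, 1.83, 5.53 and 3.00 CPM in RLT Vav Txp and 0.228, 0.686, 0.129 and 0.137 CPM in P28 ME E10.5, where it rested on 6 to 52 reads per library. The groups did not overlap and the log2 fold change was 3.42 ± 1.01 (edgeR, adjusted p = 0.0205). Pmaip1 had 1.43 to 2.91 CPM in P28 ME E10.5, below the lowest RLT Vav Txp library of 3.33 CPM, and its log2 fold change was 1.93 ± 0.61 (edgeR, adjusted p = 0.0284).

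Both calls depended on single libraries. Bcl2a1b lost its call without P28 ME E10.5 replicates 1, 3 or 4 or RLT Vav Txp replicate 3, at 3.02 to 3.29 and adjusted p of 0.0629 to 0.0734. Pmaip1 lost its call without P28 ME E10.5 replicates 1, 2 or 4 or RLT Vav Txp replicates 3 or 4, at 1.77 to 1.95 and adjusted p of 0.0597 to 0.0910. Bcl2 differed by 0.28 (edgeR, adjusted p = 0.262) and Mcl1 by 0.14 (0.465). Bax, the effector, was 59.1, 57.4, 67.8 and 71.2 CPM in RLT Vav Txp against 41.3 to 47.0 CPM in P28 ME E10.5, without overlap. Its log2 difference of 0.54 missed the threshold (edgeR, adjusted p = 0.0902), and was called by DESeq2 (0.0395) and limma (0.00691). Against P28 WT the Bax value was 0.45 (edgeR, adjusted p = 0.319).

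Macrophage markers were higher in RLT Vav Txp in 9 of 10 cases against P28 WT and in all 10 against P28 ME E10.5, and Vsig4, at 0 in both of those groups, was detected. Library 2 of RLT Vav Txp had the lowest macrophage sum of its group, 624 CPM, and also its lowest Pmaip1 and Bcl2a1b levels. Library 1 of that group had the highest sum, 2704 CPM, and the highest Pmaip1, 9.99 CPM. Its Bcl2a1b, at 2.44 CPM, was below the 5.53 CPM of library 3, which had 1886 CPM of these markers. Against P28 ME E10.5, 6 of 9 B lymphoid markers were also higher and 1 lower, and 4 of 8 mast cell and basophil markers were higher. The summed level of the 9 B lymphoid markers was lower, at 122 to 414 CPM in RLT Vav Txp beside 448 to 635 CPM in P28 ME E10.5. Of 8 LSK markers 1 was higher and 4 were lower, and of 5 megakaryocyte markers 2 were higher. Across P28 WT and both P28 ME groups, with 49.5 to 104.8 CPM of macrophage markers, Pmaip1 did not exceed 2.91 CPM. In P0 liver the levels did not run in parallel: library 3 of P0 WT had 1285 CPM of macrophage markers and 0.999 CPM of Pmaip1, while the libraries numbered 1 had 127 and 119 CPM of these markers and 4.77 and 5.03 CPM of Pmaip1. The part of other cells in the Pmaip1 and Bcl2a1b results was not tested.

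**Figure D4:**
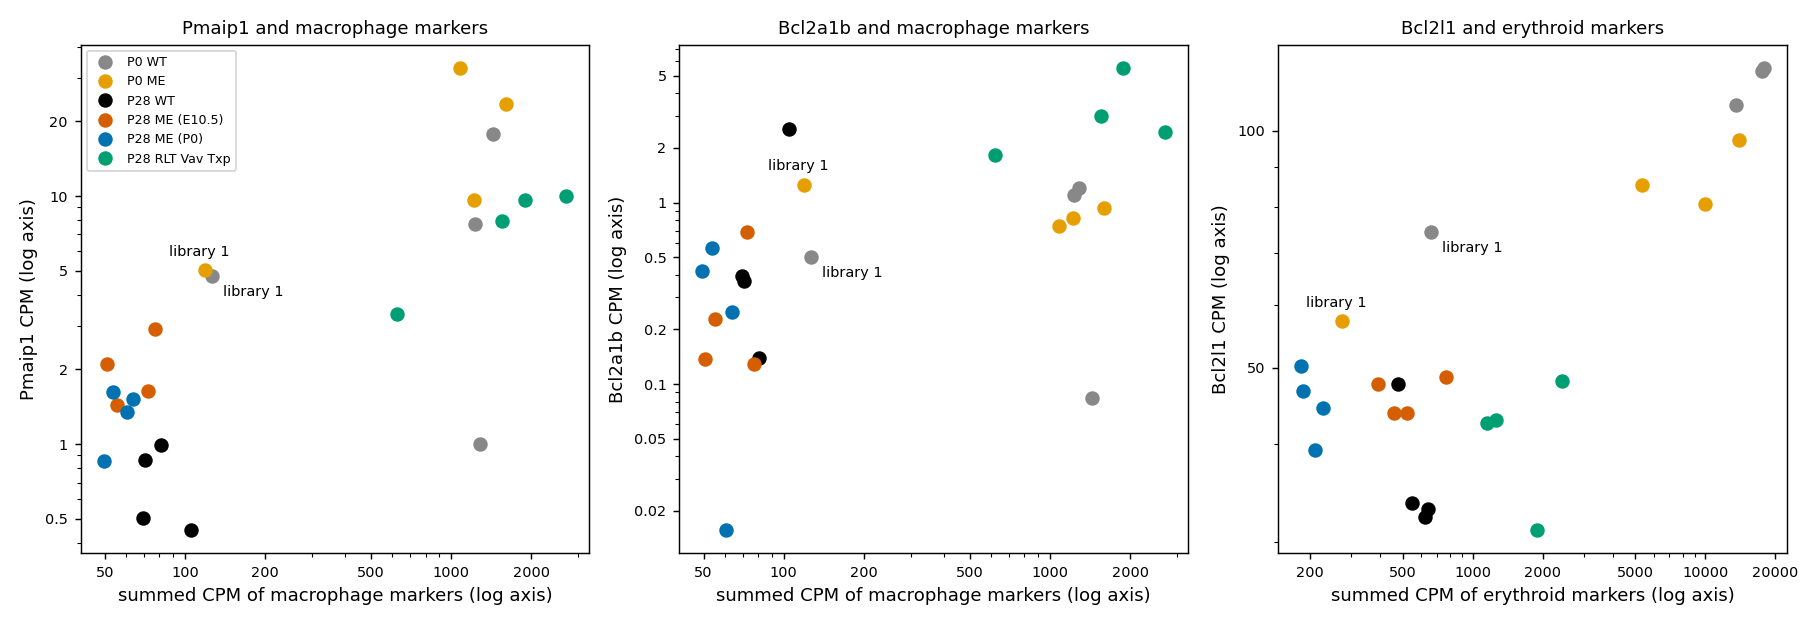
Level of Pmaip1, Bcl2a1b and Bcl2l1 (vertical axes, CPM) against the summed CPM of macrophage or erythroid markers (horizontal axes), 1 point per library, all axes logarithmic, with library 1 of each P0 group marked. Pmaip1 is at 2.91 CPM or below in the P28 WT and P28 ME libraries, where macrophage markers are low. Bcl2l1 is highest in the P0 libraries with the most erythroid RNA. In RLT Vav Txp, with more erythroid RNA than the other marrow groups, Bcl2l1 is no higher than in either P28 ME group.

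The effect of ME at P28 minus that at P0 was tested as an interaction, and 0 of 10 genes were called by edgeR, beside 0.72% of all genes by the same test. DESeq2 and limma also called 0 of the 10, with no share of all genes given for either tool. Only Bcl2l1 had an unadjusted p under 0.05. Its ME effect was -0.39 at P0 and 0.33 at P28, a difference of 0.72 ± 0.26 (edgeR, adjusted p = 0.157). For Bcl2 the difference was -0.32 (edgeR, adjusted p = 0.520).

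The remaining 4 genes, Bax, Bak1, Bbc3 and Bid, were called in 0 of 9 comparisons by edgeR. Bid, which links death receptors to mitochondria, kept to 85.9 to 173.8 CPM with log2 values of -0.28 to 0.24. Bax ranged over 32.6 to 92.4 CPM, most widely in the P0 groups. Bbc3, a p53 target, ranged over 6.55 to 28.2 CPM, with log2 values of -0.36 to 0.38. Bak1, at 0.574 to 2.80 CPM and 33 to 230 reads per library, had the least precise values among these 4, of -0.36 to 0.48.

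By group mean, Bcl2 stood lowest in P0 WT (27.1 ± 5.11 CPM), then in P0 ME (41.3 ± 6.81), P28 ME P0 (45.6 ± 4.03), P28 WT (47.5 ± 7.85), P28 ME E10.5 (57.8 ± 4.70) and RLT Vav Txp (70.2 ± 9.29; SD, n = 4). Only the first pair of neighbours in that order did not overlap. Mcl1 ran from 257.7 ± 13.6 CPM in P28 WT to 329.9 ± 11.2 in P28 ME P0, 332.0 ± 11.5 in P28 ME E10.5, 364.6 ± 23.0 in RLT Vav Txp, 381.5 ± 56.3 in P0 WT and 457.7 ± 30.7 in P0 ME. P28 WT was clear of its neighbour, while all other neighbours overlapped. Bcl2l1 means were 36.7 to 46.0 CPM in the 4 marrow groups, which overlapped one another, and 80.2 ± 16.8 and 105.3 ± 21.4 CPM in P0 ME and P0 WT, which overlapped each other but not the marrow groups.

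The 3 lists of related genes, chosen with earlier results known, show the wider pathway. Of 16 other BCL2 family genes 13 were tested. In P28 ME E10.5 against P28 WT, 1 was higher and 1 lower, beside 12.3% of all genes called: Bcl2l13, a mitochondrial relative, at 0.89 (edgeR, adjusted p = 0.0279), and Bnip3, a hypoxia-induced mitophagy receptor, at -0.58 (0.0462). In RLT Vav Txp against P28 ME E10.5, 2 were higher and 2 lower, beside 17.9% of all genes. The higher ones were the A1 copies Bcl2a1d, at 3.99, and Bcl2a1a, at 4.37 (edgeR, adjusted p = 0.00555 and 0.00697), which share sequence with Bcl2a1b. The lower ones were Bcl2l14, at -1.07 (edgeR, adjusted p = 0.0123), and Bok, a relative of BAX and BAK, at -1.09 (0.0487). Leaving out each library in turn, Bcl2l14 lost its call only without RLT Vav Txp replicate 4 (-0.85, adjusted p = 0.0662), and Bok stayed called only without RLT Vav Txp replicate 1, with -1.21 to -0.81 and adjusted p up to 0.202 in the other 7 fits. Between P28 and P0 in ME, 1 was higher and 3 lower, beside 18.2% of all genes, with Bnip3l, the mitophagy receptor of maturing red cells, at -0.99 (edgeR, adjusted p = 0.000296), Bnip3 at -0.83 (0.00363) and Bmf, a BH3-only gene, at -2.32 (0.0117). With the libraries numbered 1 alone at P0, these were -0.56, -0.05 and -2.61, given without a test. Against P28 WT, with each library left out in turn, Bcl2l13 stayed called in 3 of 8 fits, at 0.68 to 1.02, and Bnip3 in 0 of 8, at -0.69 to -0.50.

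Of 21 genes for caspases, the apoptosome and their inhibitors, 5 were higher and 1 lower in P28 ME E10.5 than in P28 WT, beside 12.3% of all genes called. The list's median log2 fold change was 0.14 beside -0.10 over all genes. Apaf1, the scaffold on which caspase 9 is activated, was 26.3 ± 2.50 CPM in P28 WT and 60.4 ± 2.42 CPM in P28 ME E10.5 (SD, n = 4), a log2 fold change of 1.20 (edgeR, adjusted p = 0.00484). Casp9 itself was higher by 0.80 (edgeR, adjusted p = 0.0106) and Cflar, an inhibitor of caspase 8 activation, by 0.50 (0.0319). Diablo, whose product relieves the inhibition of caspases, fell by 0.96 (edgeR, adjusted p = 0.0255). With ME induced at P0, 0 of the 21 were called by edgeR, beside 1.57% of all genes. At an unadjusted p under 0.05 there were 4, without a share over all genes to set beside them. Apaf1 was 48.0 ± 2.30 CPM in that group. In RLT Vav Txp against P28 ME E10.5, 3 were higher and 3 lower, beside 17.9% of all genes. Leaving out each library in turn, Apaf1 stayed called against P28 WT in all 8 fits and Diablo in 3, while Casp9 lost its call only without P28 WT replicate 2 (0.65, adjusted p = 0.0738). Cflar stayed called only without P28 WT replicate 4, with 0.40 to 0.54 and adjusted p of 0.0516 to 0.151 in the 7 fits that lost it.

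Of 15 upstream regulators, 5 were higher and none lower in P28 ME E10.5 against P28 WT, beside 12.3% of all genes called and with a median of 0.51 beside -0.10 over all genes. Among them were Usp9x, a deubiquitinase that stabilises MCL1, at 1.52 (edgeR, adjusted p = 0.00942), Huwe1, a ubiquitin ligase that marks MCL1 for destruction, at 0.80 (0.00752), and Stat5a, a cytokine-activated factor, at 0.75 (0.0127). Huwe1 was also higher with ME induced at P0, at 0.81 (edgeR, adjusted p = 0.0375), the only one of the 15 called there, and that call held only in the fit without P28 WT replicate 4, of the 8 that each left out 1 library (0.70 to 0.86, adjusted p up to 0.161). The E10.5 call of Huwe1 was lost without P28 WT replicate 1 (0.66, adjusted p = 0.0575). Without P28 WT replicate 2, Usp9x (1.37, adjusted p = 0.0551) and Stat5a (0.63, 0.0815) lost theirs, and Stat5a also with plain library totals (0.62, 0.0729). In RLT Vav Txp against P28 ME E10.5, 1 of 15 was higher and 5 lower, beside 17.9% of all genes. Between P28 and P0 in ME, 5 of 15 were higher and none lower, beside 18.2% of all genes, among them Myc at 1.61 (edgeR, adjusted p = 5.35e-05) and Trp53 at 1.05 (0.000451).

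Across the 24 libraries, the gene whose log2 CPM most resembled that of Bcl2 was Timp2 (Pearson r = 0.87), followed by Acadl (0.86) and Cpne2 (0.85), among 9684 candidates. The nearest gene was St3gal5 for Bcl2l1 (0.93), Ppm1a for Mcl1 (0.85), Sgk1 for Pmaip1 (0.91), Mpeg1 for Bcl2a1b (0.72) and Nucb2 for Bcl2l11 (0.85). It was Snx3 for Bax (0.87), Nudt4 for Bid (0.85), Map4k3 for Bbc3 (0.82) and Nabp2 for Bak1 (0.63). These values describe libraries that share groups, tissue and depth, and they carry no test. Within the 10 genes, r was -0.73 between Bcl2 and Bcl2l1 and 0.75 between Mcl1 and Pmaip1.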

How the data were processed

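The deposited table holds raw read counts per Ensembl gene for 24 libraries. Per the submitters' processing notes, STAR 2.7.9a, Subread, featureCounts 2.0.3 and GRCm38 were used, with roles, strand setting and handling of reads with several matches not given in the sources used here. Per the labels' protocols, RNeasy Plus extraction was followed by Clontech SMARTer library preparation. Of 55774 entries, 287 repeats of 168 IDs with identical counts were dropped. Symbols, positions and exon lengths came from GENCODE M21 (GRCm38) for 55227 IDs.

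Genes were kept by filterByExpr with a minimum count of 10, leaving 23059. With TMM scaling, edgeR 4.0.16 (robust quasi-likelihood F-test) was run on the 24 libraries together, 1 coefficient for each group, with 18 residual degrees of freedom. P-values were adjusted by Benjamini-Hochberg over all genes tested, and SEs are the log2 fold change over the root of F. The procedure was tested on simulated data. Depth was 31233688 to 89774511 counts. The design text calls the 4 libraries of a group biological replicates. The 4 RLT Vav Txp libraries carry a code in the labels in place of a replicate number, and were numbered in accession order. The codes of libraries 1 and 2 begin with the same digits. What the codes stand for is not given in the sources used here, and whether these libraries are related was not tested. The fits treated all 4 as independent.

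The members, gene lists and tests were chosen with earlier results of these data known. All 10 members are named, with at most 4 called genes of each list per comparison, taken in order of adjusted p, and, for likeness, the gene with the highest r (3 for Bcl2) among genes whose log2 CPM averaged 3 or more. Alternatives were RLE factors, plain totals, DESeq2 1.42.0, limma 3.58.1 voom, other filters, fewer groups, a block for replicate number, and each library left out in turn. P0 groups by libraries numbered 1 alone was added after seeing the markers, and is given by effect sizes only. R was 4.3.3 and Python 3.11.15.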

Additional observations from a re-analysis of the deposited data

Results flagged for a closer look

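Of the 60 combinations of gene and group of 4 libraries, 2 held a library whose gap to its nearest neighbour took up more of the group's range than Dixon's 95% critical value. Chance flags about 1 in 20 such groups. In P28 WT, replicate 4 had 47.63 CPM of Bcl2l1 against 32.34 to 33.65 CPM in the other 3 libraries, a ratio of 0.914. Without it Bcl2l1 was lower in P28 WT than in P0 WT by a log2 value of -1.68, still called. Also in P28 WT, replicate 3 had 2.533 CPM of Bcl2a1b (203 reads) against 0.1392 to 0.3914 CPM (9 to 14 reads) in the other 3, a ratio of 0.895. The same library had the highest macrophage marker sum of its group, 104.8 CPM. Without it, Bcl2a1b in RLT Vav Txp against P28 WT was 3.42 (edgeR, adjusted p = 0.0914) in place of 1.89 (0.350).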

How the results depend on the processing

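The counts of members called moved as follows. For P28 ME E10.5 against P28 WT, 1 became 0 with RLE factors, plain totals, no filter or a stricter one (10 counts or more in 12 libraries or more), and 2 with only the groups compared. For RLT Vav Txp against P28 WT, 2 became 1 with plain totals or no filter and 3 with DESeq2. For RLT Vav Txp against P28 ME E10.5, 2 became 3 with DESeq2, limma or only the groups compared. For P0 ME against P0 WT, 0 became 1 with DESeq2. For P28 ME P0 against P28 WT, 0 became 1 with DESeq2, limma or only the groups compared, and against P28 ME E10.5 it became 1 with limma. For P28 against P0 in wild type, 4 became 2 with only the groups compared (without Bcl2 and Mcl1) and 3 with limma. In ME, 5 became 4 with RLE factors, plain totals, DESeq2 or the stricter filter and 3 with no filter. Leaving out each library in turn gave 0 to 1 for P28 ME E10.5 against P28 WT, 0 to 2 for RLT Vav Txp against P28 ME E10.5, 2 to 3 for RLT Vav Txp against P28 WT, 4 to 4 for P28 against P0 in wild type, 3 to 5 in ME and 0 to 0 in the other 4 comparisons. The cause was not tested.

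Signs were followed only for a chosen set of values, which left out Bak1, Bbc3 and Bid and some comparisons of other members. Among the members' values in that set, signs changed for 5, none of them called. The Mcl1 difference between induction at P0 and at E10.5 was -0.01, and 0.007 with RLE factors or DESeq2, 0.106 with plain totals, 0.033 with no filter, 0.020 with the stricter filter, 0.048 with only the groups compared and -0.021 to 0.015 leaving out each library. The Mcl1 interaction of 0.10 became -0.078 with plain totals, which shifted the median of all genes by -0.20 there, by 0.15 for P28 against P0 in wild type and by -0.13 for P28 ME E10.5 against P28 WT. For P28 ME P0 against P28 WT, Bcl2 was -0.06, and -0.13 to 0.038 leaving out each library, positive only without P28 WT replicate 1. The Pmaip1 interaction of 0.34 was -0.44 to 0.81, negative only without P0 WT replicate 4. The Bcl2l11 interaction of -0.43 became 0.13 with the libraries numbered 1 alone.

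Whether equal replicate numbers mark paired samples was not settled. Over 40 same-numbered pairs of libraries the correlation of deviations averaged 0.047, with a maximum of 0.66, and 14 exceeded 0.1. Over 120 pairs with different numbers it averaged -0.015, with a maximum of 0.402, and 31 exceeded 0.1. On the 20 numbered libraries, the counts of members called were the same with and without a replicate block in all 7 comparisons. They differed from those on all 24 libraries only between P28 and P0 in ME, at 4 in place of 5, where Bcl2 lost its call without the block (0.48, adjusted p = 0.0501) and with it (0.48, 0.0634). Read counts were lowest for Bcl2a1b, at 1 to 238 per library, Pmaip1, at 18 to 1393, and Bak1, at 33 to 230.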
